A study of Homo sapiens with 9 samples.

Results

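The cholesterol synthesis and SREBP2 pathway was followed through 29 genes, chosen by symbol among the 16222 genes of the deposited count table: 20 enzymes that build cholesterol or branch from that route, 7 regulators of the SREBP transcription factors and 2 genes of sterol uptake or transport. Expression was measured by RNA sequencing in THP-1, a human monocytic leukaemia line, labelled wild type in every sample. In all 9 libraries the cells had received PMA, a phorbol ester under which the line adheres and takes on macrophage features. Of these, 3 libraries came from cells then given LPS (lipopolysaccharide, a component of Gram-negative bacterial envelopes) together with ABS (LPS_ABS), 3 from cells given LPS, and 3 from cells given PBS (control). The labels leave ABS unexplained and the series title names apoptotic bodies. Doses and times are not given in the sources used here. No label ties the replicates to separate cultures, so the p-values below measure the spread between libraries, which may be technical.

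Cells make cholesterol from acetyl-CoA. The early enzymes build mevalonate and turn it into farnesyl diphosphate, which is either drawn off to isoprenoids such as geranylgeranyl diphosphate or joined into squalene, and squalene is closed to lanosterol and trimmed to cholesterol. The route is controlled by SREBP2, a membrane-bound precursor: when sterol is scarce, SCAP escorts it to the Golgi, where a pair of proteases release its transcription factor domain, and when sterol is plentiful INSIG proteins hold SCAP in the endoplasmic reticulum. Macrophages balance synthesis and uptake with sterol efflux, which liver X receptors (LXR) drive. Messenger levels do not measure this processing of the protein.

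Total counts per library lay between 38506162 and 41679412, and the 29 genes took up 0.435 to 0.451% of them with LPS_ABS, 0.374 to 0.395% with LPS and 0.478 to 0.524% in controls. All 10 monocyte and macrophage markers were counted in every library, with summed levels of 1704 to 1923 CPM (counts scaled to library size) with LPS_ABS, 1646 to 1691 CPM with LPS and 1460 to 1591 CPM in controls, while B cell markers summed to at most 13.3 CPM, fibroblast markers to at most 5.67 CPM and chondrocyte, T cell, endothelial and epithelial markers each to under 1 CPM. Counts rose with the GC content of transcripts in the LPS_ABS libraries and not in the others. Relative to the mean of all libraries, log2 counts changed per 10 points of GC content by 0.22, 0.32 and 0.37 in LPS_ABS 1, 2 and 3, by -0.30, -0.02 and -0.12 in LPS 1, 2 and 3, and by -0.17, -0.15 and -0.14 in control 1, 2 and 3. Every comparison that involves LPS_ABS is therefore given as counted and after a correction for this trend. LPS_ABS 1 and LPS_ABS 3 were the pair of replicates farthest apart. Their chi-square per degree of freedom was 141, where pairs within groups otherwise had 7.13 to 83.3. Whether RNA quality or library preparation accounts for the GC trend was not tested.

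In controls the enzymes were spread over a wide range of levels, compared here per transcript length as the deposited FPKM (fragments per kilobase of transcript, scaled to library size). FDPS (gene ID 2224), which makes farnesyl diphosphate, was the highest at 386 ± 20.8 FPKM (SD, n = 3). FDFT1 (2222), which joins that product into squalene, followed at 186 ± 4.88 FPKM, and EBP (10682), a sterol isomerase near the end of the route, at 162 ± 6.07 FPKM. INSIG1 (3638), a retention protein, stood at 144 ± 15.5 FPKM and ACAT2 (39), the cytosolic thiolase that opens the route, at 139 ± 3.62 FPKM. The control libraries of INSIG1 overlapped those of both EBP and ACAT2. SQLE (6713), the squalene epoxidase, stood at 91.2 ± 2.99 FPKM and SREBF2 (6721), the gene of SREBP2, at 69.05 ± 1.61 FPKM. DHCR7, MVD and HMGCS1, at 59.5 ± 5.86, 56.6 ± 3.995 and 51.9 ± 8.25 FPKM, overlapped among themselves. LBR, at 42.7 to 45.9 FPKM, overlapped both PMVK (44.2 to 45.2 FPKM) and NSDHL (40.7 to 43.7 FPKM), which lay apart. At the low end were SREBF1 (6720), the gene of SREBP1, at 11.8 ± 0.644 FPKM, STARD4 (134429), a soluble sterol carrier, at 4.64 ± 0.361 FPKM, the protease gene MBTPS2 (51360) at 3.16 ± 0.230 FPKM and INSIG2 (51141) at 1.14 ± 0.143 FPKM. NPC1L1 (29881), a sterol uptake protein of the gut, had 4 counts in LPS_ABS 3, 4 in control 1 and 0 in each of the other libraries, where a count of 0 allows up to 3. It was left out of the tests, which covered the other 28 members.

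**Figure D1:**
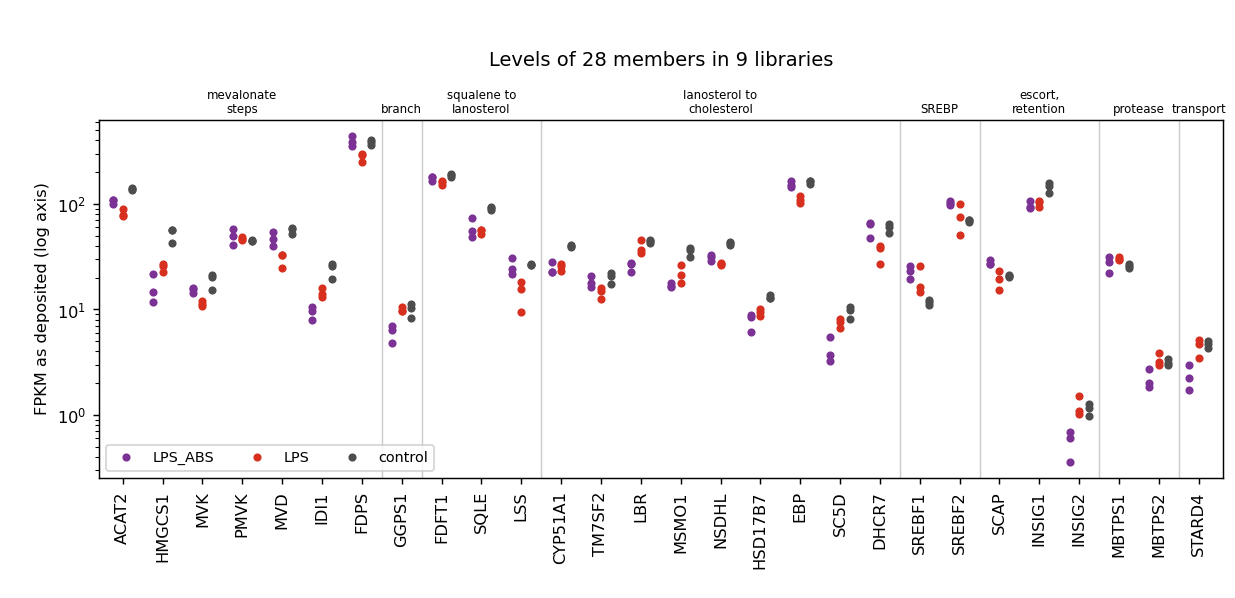
Deposited FPKM (log axis) of 28 members in pathway order, with LPS_ABS, LPS and control libraries as points from left to right for each gene. FDPS is highest in every group, at 386 FPKM in controls, and INSIG2 lowest, at 1.14 FPKM in controls.

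With LPS, 13 of 20 enzymes of cholesterol synthesis fell, while 6 of 8 genes of SREBP regulation and sterol transport were not called. Of 28 members tested, 14 were lower and 1 higher with LPS than in controls (edgeR quasi-likelihood test, Benjamini-Hochberg adjusted p under 0.05 over 12970 genes), against a background of 7.19% of all genes lower and 7.71% higher. The 14 comprised the 13 synthesis enzymes and INSIG1, and the gene that rose was SREBF1. The median log2 fold change was -0.62 over the enzymes, 0.11 over the 8 regulators and transport genes tested and -0.03 over all genes tested. The 3 LPS libraries lay below all 3 controls in 18 members and above them in 3, where the groups did not overlap in 42.6% of all genes. In RNA from whole cultures, fewer cells expressing a gene and less of its RNA per cell cannot be told apart.

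**Figure D2:**
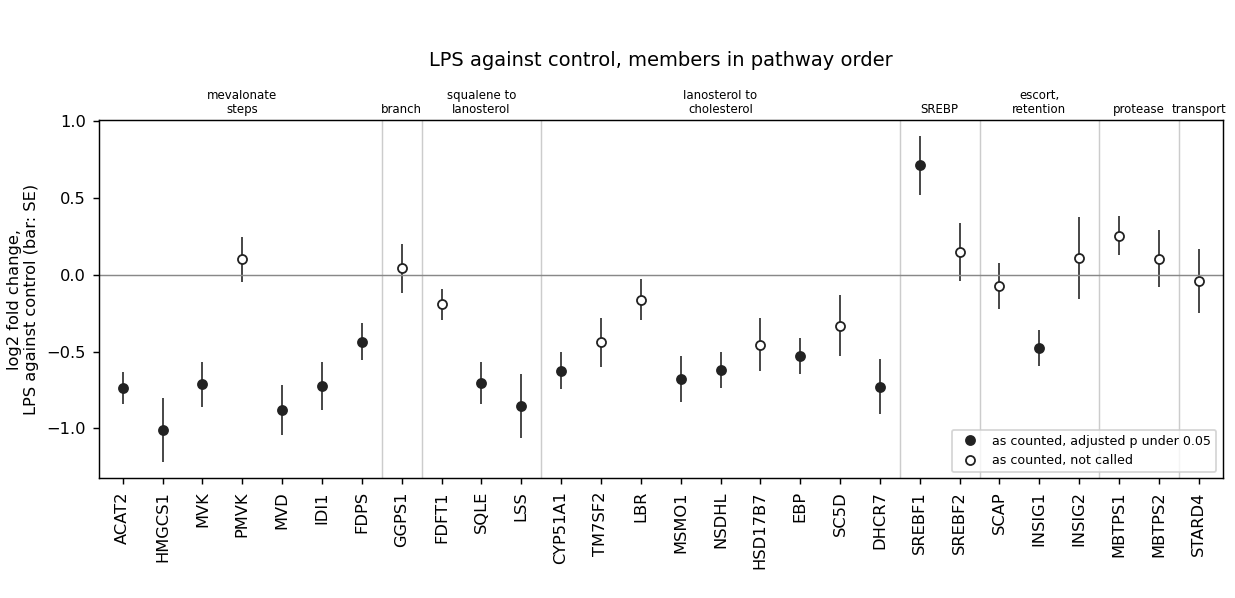
Log2 fold change with LPS against control for 28 members in pathway order; bars are standard errors, filled points have an edgeR adjusted p under 0.05 and open points do not. The filled points of the enzymes lie between -0.44 and -1.01, and SREBF1 is the filled point above 0, at 0.71.

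Of the 7 early enzymes, which lead to farnesyl diphosphate, 6 fell with LPS, with a median log2 fold change of -0.72 over the 7. HMGCS1 (3157), the hydroxymethylglutaryl-CoA synthase, had 159.98, 145 and 175 CPM with LPS and 347, 351 and 267 CPM in controls. The groups were well apart, and it had the largest fall of the members (log2 fold change -1.01 ± 0.21 SE, edgeR adjusted p = 0.00776). ACAT2 had 156, 138 and 144 CPM with LPS and 244, 247 and 239.9 CPM in controls, tight groups with no overlap (-0.74 ± 0.10, adjusted p = 0.000806). MVD (4597), which decarboxylates mevalonate diphosphate, had 49.1, 68.4 and 68.6 CPM with LPS and 119, 117 and 107 CPM in controls. LPS 1 was the lowest library, but each LPS library lay below each control (-0.88 ± 0.16, adjusted p = 0.00405). IDI1 (3422), the isomerase of isopentenyl diphosphate, had 90.8, 77.4 and 84.3 CPM with LPS and 154, 149 and 114 CPM in controls (-0.72 ± 0.16, adjusted p = 0.00972). Control 3 was the nearest to the LPS libraries for IDI1, as it was for HMGCS1.

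MVK (4598), the mevalonate kinase, had 28.02, 32.1 and 31.3 CPM with LPS and 55.9, 53.0 and 41.1 CPM in controls, again with control 3 the lowest control (-0.71 ± 0.14, edgeR adjusted p = 0.00691). FDPS had 487, 420.4 and 494 CPM with LPS and 625, 662 and 608 CPM in controls, the smallest of the 13 enzyme falls (-0.44 ± 0.12, adjusted p = 0.0323). PMVK (10654), the phosphomevalonate kinase, was the early enzyme that was not called: its 57.4, 57.0 and 63.4 CPM with LPS lay just above the 55.0, 54.2 and 56.7 CPM of controls (0.10 ± 0.15, adjusted p = 0.705). GGPS1 (9453), which draws farnesyl diphosphate off to geranylgeranyl diphosphate, was not called either, with overlapping libraries at 45.4 to 48.3 CPM with LPS and 38.4 to 50.9 CPM in controls (0.04 ± 0.16, adjusted p = 0.9). Exons of ACAT2 and MVK overlap those of SOD2 and MMAB on the opposite strand, by 1141 and 306 bases in GENCODE, and 8 named pseudogenes of FDPS exist, so reads could be shared at these genes.

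From squalene to lanosterol, 2 of 3 enzymes fell with LPS. SQLE, the epoxidase often counted as a control point of the route, had 178, 168 and 185 CPM with LPS and 290.2, 293 and 282 CPM in controls (log2 fold change -0.70 ± 0.14 SE, edgeR adjusted p = 0.00529). Both groups of SQLE were tight and far apart. LSS (4047), the lanosterol synthase, had 45.8, 89.6 and 78.5 CPM with LPS and 129.96, 126 and 131 CPM in controls (-0.86 ± 0.21, adjusted p = 0.0171). LPS 1, the library whose counts fell most steeply with GC content, was well below the other LPS libraries for LSS. FDFT1 had 647, 626 and 697 CPM with LPS and 748, 764 and 741 CPM in controls, without overlap, but was not called (-0.19 ± 0.10, adjusted p = 0.223).

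From lanosterol to cholesterol, 5 of 9 enzymes fell with LPS, with a median log2 fold change of -0.53 over the 9. CYP51A1 (1595), the lanosterol demethylase, had 84.6, 75.9 and 86.1 CPM with LPS and 126, 129.6 and 125 CPM in controls (-0.62 ± 0.12, edgeR adjusted p = 0.00521). NSDHL (50814), which acts further along on the methyl groups of the sterol, had 46.9, 46.2 and 48.6 CPM with LPS and 73.0, 74.1 and 70.7 CPM in controls (-0.62 ± 0.12, adjusted p = 0.0045). For these enzymes the libraries of a group lay close together and the groups far apart. MSMO1 (6307), a methylsterol oxidase, had 58.2, 41.0 and 49.4 CPM with LPS and 85.3, 82.1 and 70.6 CPM in controls (-0.68 ± 0.15, adjusted p = 0.0105). EBP had 118, 114 and 134 CPM with LPS and 179, 179 and 171 CPM in controls (-0.53 ± 0.12, adjusted p = 0.0111). DHCR7 (1717), the reductase of dehydrocholesterol, had 71.7, 109 and 106 CPM with LPS and 160.2, 171 and 144 CPM in controls, with LPS 1 the lowest (-0.73 ± 0.18, adjusted p = 0.0171).

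The other 4 late enzymes had log2 fold changes of -0.16 to -0.45 with LPS and were not called. TM7SF2 (7108) and LBR (3930) are both sterol reductases, LBR being also a protein of the nuclear envelope. TM7SF2 had 19.1, 24.9 and 23.8 CPM with LPS and 31.3, 33.7 and 27.0 CPM in controls (-0.44 ± 0.16, edgeR adjusted p = 0.083), and LBR overlapped between groups (-0.16 ± 0.14, adjusted p = 0.467). TM7SF2 was called after the GC correction (-0.40 ± 0.12, adjusted p = 0.0372). HSD17B7 (51478), a ketosteroid reductase, and SC5D (6309), a sterol desaturase, lay below every control without being called (-0.45 ± 0.17, adjusted p = 0.0911, and -0.33 ± 0.20, adjusted p = 0.295). CYP51A1 and HSD17B7 have 3 and 2 named pseudogenes, which may share reads.

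Among the regulators, SREBF1 rose and INSIG1 fell with LPS. SREBF1, whose product SREBP1 acts mainly on fatty acid genes, had 71.8, 129 and 83.1 CPM with LPS and 57.8, 54.0 and 61.6 CPM in controls. Each LPS library lay above each control, LPS 2 far above the other LPS libraries (log2 fold change 0.71 ± 0.19 SE, edgeR adjusted p = 0.0264). INSIG1, itself a well known target of SREBP, had 272, 242 and 276 CPM with LPS and 373, 398 and 328 CPM in controls (-0.47 ± 0.12, adjusted p = 0.0174). SREBF2 had 352, 712 and 553 CPM with LPS and 489, 469.7 and 501 CPM in controls, so that the LPS libraries lay on both sides of the controls (0.15 ± 0.19, adjusted p = 0.655). SCAP (22937), the escort protein, was spread in the same order, at 66.3, 104 and 89.1 CPM with LPS against 92.4, 89.8 and 90.8 CPM in controls (-0.07 ± 0.15, adjusted p = 0.8). For SREBF1, SREBF2 and SCAP, which all have GC contents of 57.9 to 64.7%, LPS 1 was the lowest and LPS 2 the highest of the LPS libraries.

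The SREBP proteases, INSIG2 and STARD4 were not called with LPS. MBTPS1 (8720), the protease that makes the initial cut in SREBP, had 148, 159 and 155 CPM with LPS, all above the 129, 133 and 126 CPM of controls (0.26 ± 0.12, edgeR adjusted p = 0.194). MBTPS2, the protease of the intramembrane cut, had 13.2 to 16.5 CPM with LPS and 12.7 to 14.9 CPM in controls, and INSIG2 had 3.42 to 4.83 CPM with LPS and 3.199 to 4.03 CPM in controls. STARD4 ranged from 34.7 to 52.2 CPM with LPS and from 42.3 to 48.4 CPM in controls. These last 3 genes overlapped between groups, with log2 fold changes of 0.10 ± 0.18, 0.11 ± 0.27 and -0.04 ± 0.21. Exons of SREBF1 overlap RAI1 on the opposite strand by 556 bases in GENCODE, and those of MBTPS2 and GGPS1 overlap YY2 and TBCE on the same strand.

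**Figure D3:**
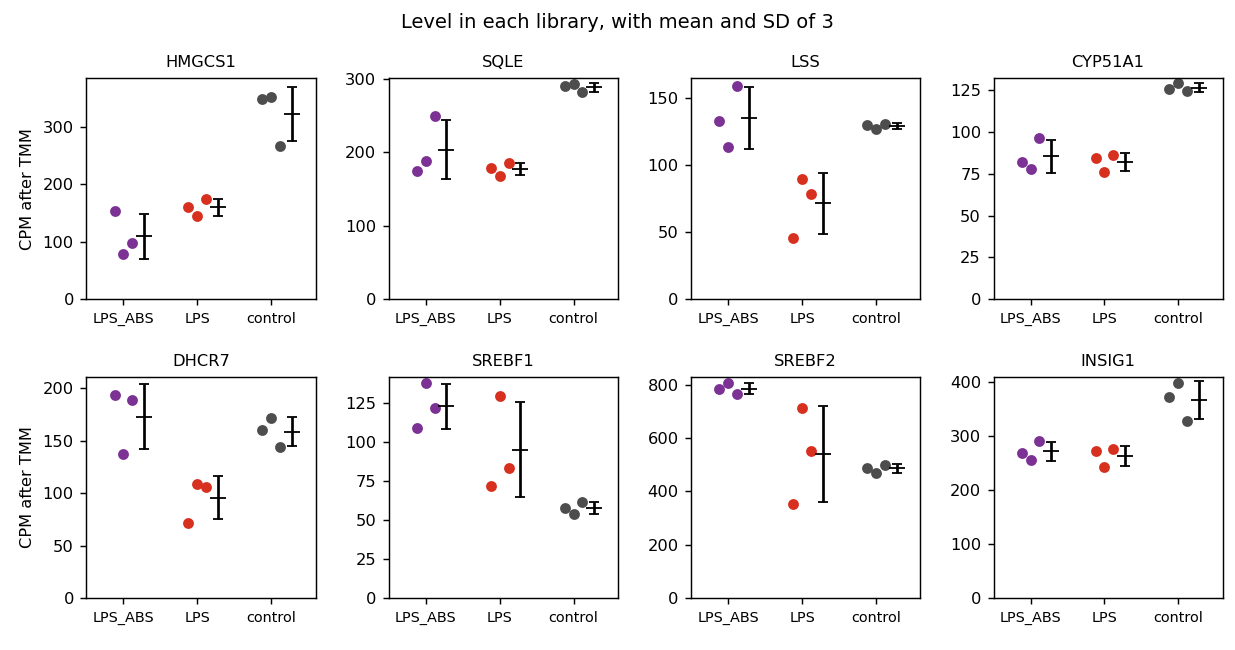
CPM after TMM scaling in each library of 8 members (5 enzymes, SREBF1, SREBF2 and INSIG1), with the mean and SD of the 3 libraries beside them. The LPS points of the 5 enzymes and INSIG1 lie below all controls, those of SREBF1 above them, and those of SREBF2 range from 352 to 712 CPM around the controls.

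ACAT2, HMGCS1, MVK, MVD, SQLE, CYP51A1 and NSDHL were called lower with LPS with all libraries and in every alternative tried. With control 1, 2 or 3 left out, 7, 9 and 12 members were lower, and with LPS 1, 2 or 3 left out, 14, 10 and 12. Calls over all genes fell as well, from 1933 to 907, 891 and 890 without control 1, 2 or 3. They numbered 1698, 1388 and 873 without LPS 1, 2 or 3. The call of SREBF1 ended without control 1, control 2, control 3 or LPS 2 (0.46 without LPS 2), that of LSS without any 1 of the controls, that of FDPS without any 1 of the controls, LPS 2 or LPS 3, and that of INSIG1 without control 1, control 2, LPS 2 or LPS 3. EBP was not called without control 1, control 2 or LPS 2, DHCR7 without control 1 or control 2, MSMO1 without control 1 or LPS 2, and IDI1 without control 1. All 15 calls held after the GC correction, and across the 28 members Spearman's rho of the log2 fold change with GC content was -0.10 (0.01 over 12936 genes, which are not independent replicates).

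Because 13 enzymes fell with LPS, the promoters of the members were read from RefSeq (GRCh38.p14), in windows of 250 bases before to 50 after each annotated start. Windows were found for 26 of the 29 members; ACAT2, FDFT1 and SQLE had no entry. SREBP is known to act on sterol regulatory elements beside CCAAT boxes, which the factor NF-Y binds. The letters CCAAT, on either strand and with overlapping matches counted apart, occurred in 18 of 26 member genes (69.2%), against 43.2% of 10456 tested genes with a window. They occurred in 11 of 12 members that were lower with LPS, CYP51A1 being the exception, and in 7 of the 14 others. Those 7 included TM7SF2, HSD17B7 and SC5D, which also lay below every control with LPS but were not called as counted. The rest were GGPS1, SREBF2 and STARD4, whose LPS and control libraries overlapped (log2 fold changes 0.04, 0.15 and -0.04), and NPC1L1, which was not tested. Whether the letters bear on the falls was not tested. The strict element TCACNCCAC occurred in the window of SREBF2 and of no other member, and in 1.44% of tested genes. The GC box GGGCGG occurred in 21 of 26 members (80.8%), against 76.3% of tested genes, and the E-box CACGTG in 4 of 26 members, against 12.6% of tested genes. A match describes the letters and not a binding site.

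The stretches that hold the CCAAT letters are shown for 6 enzymes that fell with LPS, for INSIG1, which fell with them, and for SREBF2, which has the strict element as well. For genes with several annotated starts, the window with the most matches is shown. The other window of HMGCS1 and that of DHCR7 held no CCAAT, and the others of IDI1 held 2 and 0. Each stretch is written 5′ to 3′ on the strand of its gene, upstream of the start of that window. Capitals mark CCAAT or its reverse complement in these stretches and, in SREBF2, the sterol regulatory element. They lie at chr5:43313496-43313579 (minus strand) for HMGCS1, chr16:88663160-88663262 (minus) for MVD, chr10:1048957-1049030 (minus) for IDI1, chr1:155308678-155308831 (plus) for FDPS, chr21:46228908-46228936 (minus) for LSS, chr11:71448425-71448499 (minus) for DHCR7, chr7:155297696-155297724 (plus) for INSIG1 and chr22:41832960-41833015 (plus) for SREBF2.
HMGCS1: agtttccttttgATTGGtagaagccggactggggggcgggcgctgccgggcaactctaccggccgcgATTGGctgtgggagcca
MVD: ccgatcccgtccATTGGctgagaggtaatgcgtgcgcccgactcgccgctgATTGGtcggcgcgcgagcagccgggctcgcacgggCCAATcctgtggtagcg
IDI1: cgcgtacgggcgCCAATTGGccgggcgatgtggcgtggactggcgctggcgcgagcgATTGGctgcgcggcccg
FDPS: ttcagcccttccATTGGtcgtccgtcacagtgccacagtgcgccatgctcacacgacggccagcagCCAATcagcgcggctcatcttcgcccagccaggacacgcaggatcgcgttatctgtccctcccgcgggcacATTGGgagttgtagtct
LSS: cgcggcgctctgATTGGttgcgtgggcgt
DHCR7: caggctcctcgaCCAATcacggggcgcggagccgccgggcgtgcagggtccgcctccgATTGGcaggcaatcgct
INSIG1: cgccggcctcccATTGGttgcggccgcct
SREBF2: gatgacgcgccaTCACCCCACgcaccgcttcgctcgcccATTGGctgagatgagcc
MVD, IDI1 and FDPS each have 3 matches in these stretches, of which a pair in IDI1 overlap, HMGCS1 and DHCR7 have 2, and LSS and INSIG1 have 1. In SREBF2 the element ends a short way upstream of its CCAAT match.

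With ABS added to LPS, the enzymes moved in both directions as counted, and those that moved up differed in GC content from those that moved down. Between LPS_ABS and LPS, edgeR's quasi-likelihood test called 9 members higher and 6 lower at an adjusted p under 0.05, where 16.8% of all genes were higher and 18.8% lower. The groups did not overlap in 18 of the 28 members and in 46.2% of all genes. With total counts in place of TMM scaling, 32.6% of all called genes were higher, against 47.2%, and 8 members were higher and 8 lower. The 9 higher members, ACAT2, MVK, MVD, FDPS, LSS, EBP, DHCR7, SREBF2 and SCAP, had GC contents of 50.2 to 65.6%, and the 6 lower ones, IDI1, GGPS1, LBR, SC5D, INSIG2 and STARD4, of 34.2 to 41.1%. Across the 28 members, Spearman's rho of the log2 fold change with GC content was 0.85, and 0.69 over 12936 genes. These are descriptions, since the genes share their libraries.

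After the GC correction 5 enzymes were higher with LPS_ABS than with LPS, where 5.03% of all genes were higher and 4.23% lower. They were ACAT2, LSS and DHCR7, called before it too, and CYP51A1 and MSMO1. EdgeR called 0 members lower after the correction, and no other tool was run with it. In that direction 0 of the 28 had an unadjusted edgeR p under 0.05, against 1722 of the 12970 genes tested. The corrected median was 0.19 over the 28 members and 0.00 over all genes tested. Across the members rho with GC content was 0.11, a drop that follows from removing the trend. Corrected levels of CYP51A1 were 92.9, 104 and 126 CPM with LPS_ABS and 71.4, 70.7 and 78.6 CPM with LPS (log2 fold change 0.55 ± 0.12 SE, edgeR adjusted p = 0.0191). As counted, the same gene stood at 81.9, 78.1 and 96.5 CPM with LPS_ABS, among the 84.6, 75.9 and 86.1 CPM with LPS (0.06 ± 0.12, adjusted p = 0.738). Its call thus rests on the correction, as does that of MSMO1.

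MSMO1 had corrected levels of 49.2, 56.0 and 65.5 CPM with LPS_ABS and 45.2, 37.6 and 42.7 CPM with LPS (0.44 ± 0.13, edgeR adjusted p = 0.0492), but -0.26 ± 0.15 as counted (adjusted p = 0.194). ACAT2 had corrected levels of 199, 195 and 184 CPM with LPS_ABS and 163, 141 and 147 CPM with LPS (0.36 ± 0.10, adjusted p = 0.0429, and 0.48 ± 0.10 as counted, adjusted p = 0.00738). The groups of ACAT2 did not overlap on either scale. LSS had corrected levels of 106, 97.98 and 134 CPM with LPS_ABS and 57.9, 87.9 and 83.1 CPM with LPS (0.56 ± 0.16, adjusted p = 0.0432, and 0.92 ± 0.21 as counted, adjusted p = 0.00825). DHCR7 had corrected levels of 155, 118 and 159 CPM with LPS_ABS and 90.8, 107 and 112 CPM with LPS (0.48 ± 0.13, adjusted p = 0.0428, and 0.86 ± 0.18 as counted, adjusted p = 0.00642). LPS 1 remained the lowest LPS library for LSS and DHCR7 after the correction.

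The 12 calls that ended with the correction included 6 members that had been lower. STARD4 was counted at 33.2, 23.7 and 17.9 CPM with LPS_ABS and 45.2, 34.7 and 52.2 CPM with LPS (log2 fold change -0.82 ± 0.21 SE, edgeR adjusted p = 0.0132). It stood at 34.1, 34.9 and 35.5 CPM with LPS_ABS and 32.3, 32.3 and 43.1 CPM with LPS after the correction (-0.04 ± 0.13, adjusted p = 0.85). INSIG2 was counted at 2.18, 2.34 and 1.22 CPM with LPS_ABS and 4.83, 3.54 and 3.42 CPM with LPS (-1.04 ± 0.28, adjusted p = 0.0151), against -0.32 ± 0.23 after the correction (adjusted p = 0.381). The groups of both genes were apart as counted and overlapped after the correction. As counted, SC5D had 42.8, 27.4 and 23.6 CPM with LPS_ABS and 54.6, 46.4 and 54.5 CPM with LPS, and GGPS1 had 32.7, 33.9 and 23.4 CPM with LPS_ABS and 48.3, 45.4 and 46.3 CPM with LPS. Their log2 fold changes moved to -0.11 ± 0.12 and -0.07 ± 0.14 (-0.73 ± 0.20 and -0.64 ± 0.16 as counted), and their groups overlapped after the correction. IDI1 had 69.2, 59.8 and 49.1 CPM with LPS_ABS and 90.8, 77.4 and 84.3 CPM with LPS, and LBR had 135, 103 and 123 CPM with LPS_ABS and 195, 151 and 165 CPM with LPS. Both were lower as counted (-0.50 ± 0.16 and -0.50 ± 0.14) and stood at 0.01 ± 0.12 and 0.21 ± 0.14 after the correction.

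**Figure D4:**
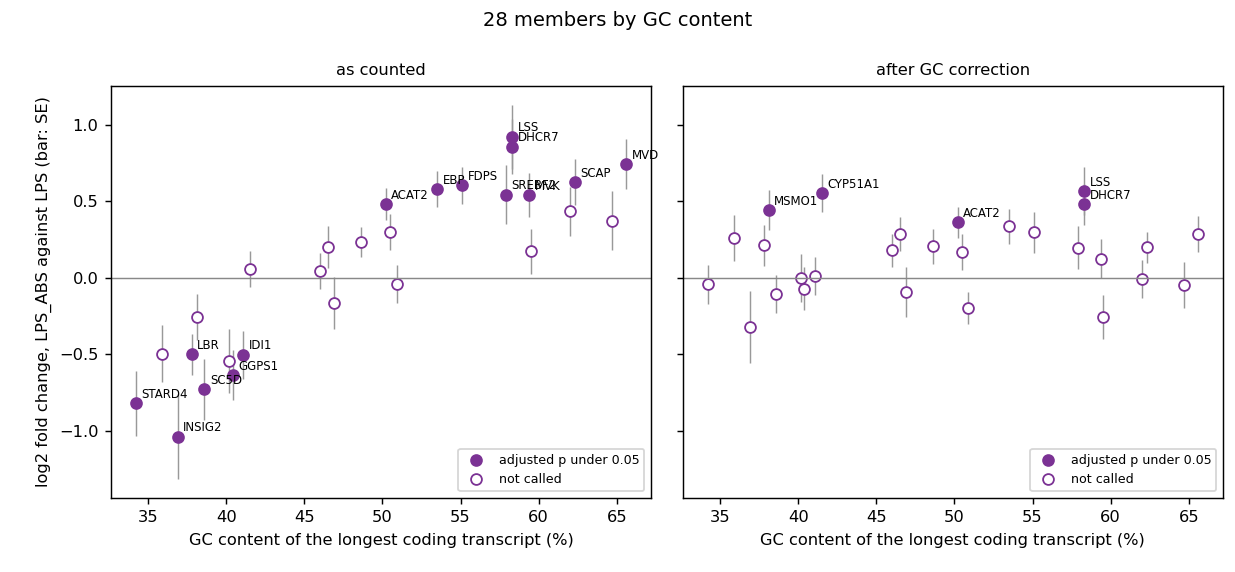
Log2 fold change with LPS_ABS against LPS of 28 members against the GC content of their longest coding transcript, as counted (left) and after the GC correction (right); bars are standard errors and filled, named points have an edgeR adjusted p under 0.05. The rise with GC content on the left (rho 0.85) is what the correction takes out on the right (rho 0.11), where 5 enzymes are called.

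Among the regulators, SREBF2 and SCAP were higher with LPS_ABS than with LPS as counted. SREBF2 had 783, 808 and 766 CPM with LPS_ABS, a tight group above the 352, 712 and 553 CPM with LPS (0.54 ± 0.19, edgeR adjusted p = 0.0416). SCAP had 134, 127 and 140.1 CPM with LPS_ABS and 66.3, 104 and 89.1 CPM with LPS (0.62 ± 0.15, adjusted p = 0.0102). After the correction both fell short of a call, at 0.20 ± 0.14 and 0.20 ± 0.10 (adjusted p = 0.38 and 0.217). The call of SREBF2 also ended without LPS 1, LPS 3 or any 1 of the LPS_ABS libraries. SREBF1 (0.37 ± 0.19 as counted and -0.05 ± 0.15 corrected), INSIG1 (0.04 ± 0.12 and 0.18 ± 0.11), MBTPS1 (-0.04 ± 0.12 and -0.20 ± 0.10) and MBTPS2 (-0.50 ± 0.19 and 0.26 ± 0.15) were not called by edgeR on either scale. For MBTPS2 the adjusted p as counted was 0.0544 with edgeR, 0.0305 with DESeq2, 0.0424 with limma-voom and 0.0209 with edgeR on total counts, so that its call depended on the tool and the scaling.

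MVK had 47.8, 40.7 and 44.4 CPM with LPS_ABS and 28.02, 32.1 and 31.3 CPM with LPS as counted, and MVD had 123, 87.4 and 100.4 CPM with LPS_ABS and 49.1, 68.4 and 68.6 CPM with LPS. FDPS had 819, 686 and 624 CPM with LPS_ABS and 487, 420.4 and 494 CPM with LPS, and EBP had 202, 169 and 176 CPM with LPS_ABS and 118, 114 and 134 CPM with LPS. In these 4 enzymes each LPS_ABS library lay above each LPS library (0.54 to 0.74), and all 4 kept a positive sign but lost their call after the correction, at 0.12 to 0.34. HMGCS1 was not called by edgeR on either scale: it had 153, 78.4 and 97.1 CPM with LPS_ABS and 159.98, 145 and 175 CPM with LPS as counted (-0.55 ± 0.21, edgeR adjusted p = 0.0571), with LPS_ABS 1 among the LPS libraries, and 0.00 ± 0.16 after the correction (adjusted p = 0.999). As counted it was called lower by DESeq2 (adjusted p = 0.0326), by limma-voom (adjusted p = 0.0352) and by edgeR on total counts (adjusted p = 0.0208) or with no filter (adjusted p = 0.0284). PMVK, FDFT1, SQLE, TM7SF2, NSDHL and HSD17B7 were not called by edgeR on either scale, with log2 fold changes of -0.16 to 0.43 as counted and -0.26 to 0.29 after the correction. As counted, DESeq2 called TM7SF2 and NSDHL higher (adjusted p = 0.0276 and 0.03), and limma-voom called TM7SF2 (adjusted p = 0.0497), as did edgeR with DESeq2 size factors (adjusted p = 0.0448). Without LPS_ABS 3, 2 members were called after the correction in place of 5, ACAT2 and CYP51A1. Calls over all genes were not counted in that fit, so these losses are not shown to be particular to the members. No other library was left out of the corrected fit, so a dependence on LPS_ABS 3 in particular is not shown. The uncorrected count of lower members was 2 without LPS 1, 3 without LPS 3 and 3 without LPS_ABS 2. Calls over all genes, in both directions, fell from 4621 to 2360, 2720 and 3243 in the same order.

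Against control, a set of enzymes was lower with LPS_ABS on both scales, and SREBF1 was higher. Between LPS_ABS and control, edgeR's quasi-likelihood test called 3 members higher (SREBF1, SREBF2 and SCAP) and 13 lower as counted, where 14.8% of all genes were higher and 19.0% lower. After the GC correction 1 was higher, SREBF1, and 9 lower, all of them synthesis enzymes, where 7.96% of all genes were higher and 5.08% lower. The 6 members called on both scales were HMGCS1, IDI1, SQLE, NSDHL, SC5D and SREBF1. The median over the 20 enzymes was -0.29 as counted and -0.32 after the correction, and over all genes tested 0.05 and 0.02. The groups did not overlap in 17 of the 28 members, against 50.0% of all genes, and with total counts 26.7% of all called genes were higher, against 43.8%. This comparison shares the LPS_ABS and control libraries with the comparisons above, so its values are set beside theirs without a test between them.

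HMGCS1 had 153, 78.4 and 97.1 CPM with LPS_ABS and 347, 351 and 267 CPM in controls (log2 fold change -1.56 ± 0.21 SE, edgeR adjusted p = 0.000673). Its log2 fold change was -0.97 ± 0.16 after the correction (adjusted p = 0.00218). IDI1 had 69.2, 59.8 and 49.1 CPM with LPS_ABS and 154, 149 and 114 CPM in controls (-1.23 ± 0.16, adjusted p = 0.000562), and -0.67 ± 0.13 after the correction (adjusted p = 0.00501). For both the groups stood far apart on either scale. SQLE had 174, 187 and 249 CPM with LPS_ABS and 290.2, 293 and 282 CPM in controls (-0.50 ± 0.14, adjusted p = 0.015, and -0.37 ± 0.11 corrected, adjusted p = 0.0415). LPS_ABS 3 was the nearest to the controls for SQLE, and the uncorrected call ended without LPS_ABS 2, control 1 or control 2. NSDHL had 63.1, 53.4 and 57.6 CPM with LPS_ABS and 73.0, 74.1 and 70.7 CPM in controls (-0.32 ± 0.12, adjusted p = 0.0477, and -0.42 ± 0.12 corrected, adjusted p = 0.0292). The uncorrected NSDHL call ended without LPS_ABS 2, LPS_ABS 3 or any 1 of the controls, and with no filter (edgeR adjusted p = 0.0788). SC5D had 42.8, 27.4 and 23.6 CPM with LPS_ABS and 72.1, 67.0 and 56.2 CPM in controls (-1.06 ± 0.20, adjusted p = 0.00283, and -0.41 ± 0.12 corrected, adjusted p = 0.0417).

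SREBF1 was higher with LPS_ABS than in controls in every alternative tried. It had 109, 137 and 122 CPM with LPS_ABS and 57.8, 54.0 and 61.6 CPM in controls, well separated groups (1.09 ± 0.19, edgeR adjusted p = 0.00212), and 0.68 ± 0.15 after the correction (adjusted p = 0.0124). SREBF2, with 783, 808 and 766 CPM with LPS_ABS and 489, 469.7 and 501 CPM in controls, was higher as counted (0.69 ± 0.19, adjusted p = 0.0161) and not called after the correction (0.34 ± 0.14, adjusted p = 0.135), although its corrected groups did not overlap. SCAP, with 134, 127 and 140.1 CPM with LPS_ABS and 92.4, 89.8 and 90.8 CPM in controls, followed the same course (0.55 ± 0.15, adjusted p = 0.0154, and 0.16 ± 0.10 corrected, adjusted p = 0.346). INSIG1 had 268, 256 and 291 CPM with LPS_ABS and 373, 398 and 328 CPM in controls (-0.43 ± 0.12, adjusted p = 0.0145), and missed a call after the correction (-0.26 ± 0.11, adjusted p = 0.136). All 3 LPS_ABS libraries of INSIG1 lay below all controls on both scales. As counted, the calls of SREBF2, SCAP and INSIG1 ended without control 1 or control 2, and those of SREBF2 and INSIG1 without LPS_ABS 2.

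**Figure D5:**
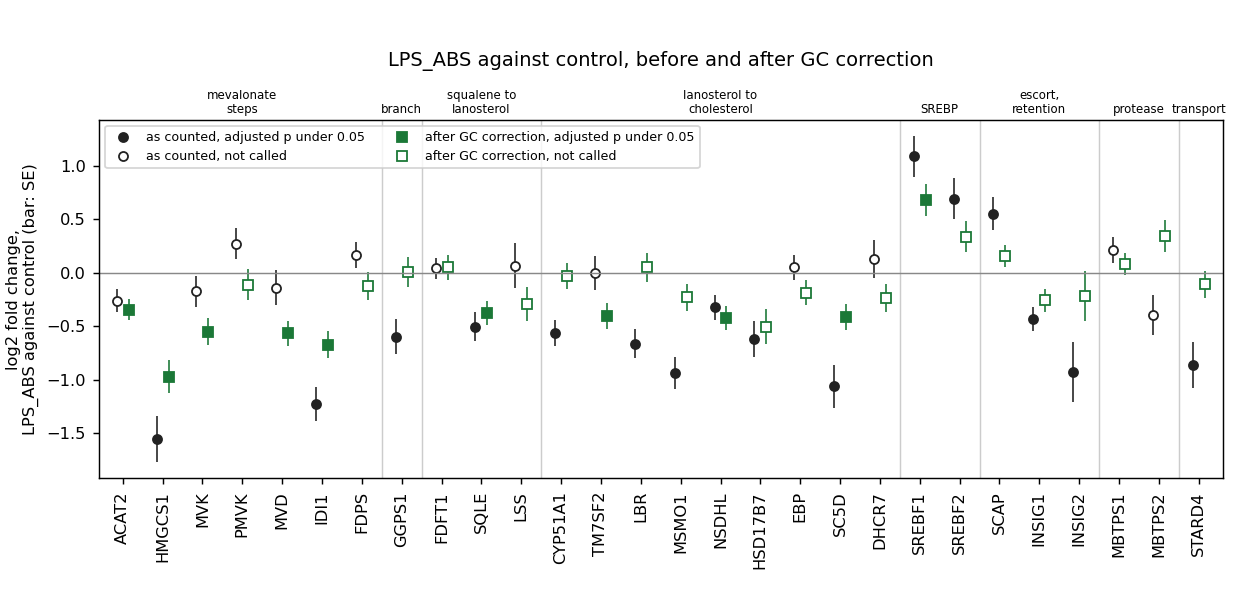
Log2 fold change with LPS_ABS against control for 28 members in pathway order, as counted (circles) and after the GC correction (squares); bars are standard errors and filled symbols have an edgeR adjusted p under 0.05. HMGCS1, IDI1, SQLE, NSDHL and SC5D are filled below 0 on both scales and SREBF1 above 0 on both.

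By step, the corrected falls against control were 5 of 7 early enzymes (ACAT2, HMGCS1, MVK, MVD and IDI1), 1 of 3 from squalene to lanosterol (SQLE) and 3 of 9 from lanosterol to cholesterol (TM7SF2, NSDHL and SC5D). ACAT2 (-0.35 ± 0.10, edgeR adjusted p = 0.0396), MVK (-0.55 ± 0.13, adjusted p = 0.0146), MVD (-0.57 ± 0.12, adjusted p = 0.00826) and TM7SF2 (-0.41 ± 0.12, adjusted p = 0.0471) were called with the correction and not as counted. MVD, for instance, was counted at 123, 87.4 and 100.4 CPM with LPS_ABS, around the 119, 117 and 107 CPM of controls, and had corrected levels of 93.9, 74.2 and 82.2 CPM with LPS_ABS and 128, 128 and 115 CPM in controls. Calls that ended with the correction included CYP51A1 (-0.57 ± 0.12 as counted, -0.03 ± 0.12 corrected), MSMO1 (-0.94 ± 0.15 and -0.23 ± 0.13) and STARD4 (-0.86 ± 0.21 and -0.11 ± 0.13). MSMO1, for instance, was counted at 45.4, 38.9 and 40.01 CPM with LPS_ABS, far below the 85.3, 82.1 and 70.6 CPM of controls, and had corrected levels of 49.2, 56.0 and 65.5 CPM with LPS_ABS and 68.6, 69.98 and 61.6 CPM in controls, where the groups overlapped. LBR and GGPS1, lower as counted (-0.66 ± 0.14 and -0.60 ± 0.16), stood at 0.05 ± 0.14 and 0.01 ± 0.14 after it, and INSIG2 (-0.93 ± 0.28 and -0.22 ± 0.23) and HSD17B7 lost their calls too. HSD17B7 had 17.0, 11.1 and 15.3 CPM with LPS_ABS and 22.9, 21.7 and 22.2 CPM in controls, apart on both scales (-0.62 ± 0.17, adjusted p = 0.0163, and -0.51 ± 0.16 corrected, adjusted p = 0.0587). Without LPS_ABS 3 the corrected counts were 1 higher and 7 lower, the calls of TM7SF2 and SC5D ending. For that fit no calls over all genes were counted to set beside them. As counted, 7 and 8 members were lower and 1 was higher without control 1 or control 2, and 9 were lower without LPS_ABS 2. Calls over all genes, in both directions, fell from 4388 to 2351, 2610 and 2940 in the same order.

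Set side by side after the correction, CYP51A1 had a log2 fold change of -0.58 ± 0.12 with LPS against control, 0.55 ± 0.12 with LPS_ABS against LPS and -0.03 ± 0.12 with LPS_ABS against control. HMGCS1 had -0.97 ± 0.16, 0.00 ± 0.16 and -0.97 ± 0.16 in the same order, and IDI1 -0.68 ± 0.12, 0.01 ± 0.12 and -0.67 ± 0.13. LSS had -0.86 ± 0.16, 0.56 ± 0.16 and -0.29 ± 0.16, and DHCR7 -0.72 ± 0.13, 0.48 ± 0.13 and -0.24 ± 0.13. These values did not follow the order of the steps: between LPS_ABS and LPS the first enzyme, ACAT2, was called higher as well, and TM7SF2, HSD17B7 and SC5D, from lanosterol to cholesterol, stood at -0.01 ± 0.12, -0.09 ± 0.16 and -0.11 ± 0.12. The calls of LSS and DHCR7 between LPS_ABS and LPS ended without LPS_ABS 3, the only library left out of the corrected fit. Calls over all genes were not counted there.

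Of 42 genes next to the pathway, in 5 lists, 5 were called higher (11.9%) and 2 lower (4.76%) with LPS than in controls, where 7.71% of all genes were higher and 7.19% lower; the genes below are therefore given as single values, not as a result about the lists. Of 12 genes of the isoprenoid branches ICMT, a methyltransferase of prenylated proteins, was lower (-0.45 ± 0.14, edgeR adjusted p = 0.0455), and of 8 fatty acid synthesis genes MID1IP1, which activates acetyl-CoA carboxylase, was higher (1.09 ± 0.15, adjusted p = 0.000637). Of 7 genes of sterol-dependent degradation and SREBP handling the ubiquitin ligase RNF145 was higher (0.65 ± 0.14, adjusted p = 0.0107). Of 9 intracellular transport genes NPC2, the lysosomal sterol carrier, was higher (0.43 ± 0.12, adjusted p = 0.0296) and TMEM97, a partner of NPC1, lower (-1.28 ± 0.18, adjusted p = 0.000944). The sterol exporters ABCA1 (0.96 ± 0.18, adjusted p = 0.00397) and ABCG1 (2.12 ± 0.66, adjusted p = 0.0486, with LPS libraries averaging 0.523 CPM and controls 0.117 CPM) were the called members of 6 LXR genes. The others, which include the LXR targets MYLIP (-0.22 ± 0.15) and SMPDL3A (-0.10 ± 0.23), were not called by edgeR.

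With LPS_ABS against LPS, 7 of the 42 genes were higher (16.7%) and 8 lower (19.0%) as counted, near the 16.8% and 18.8% of all genes, and 3 were higher and 2 lower after the GC correction (5.03% and 4.23% of all genes). Of the 12 isoprenoid branch genes 1 was higher and 5 lower as counted, and ICMT was higher after the correction (0.46 ± 0.11, edgeR adjusted p = 0.0253). Of the 8 fatty acid synthesis genes 2 were higher as counted, and after the correction ACLY, which supplies cytosolic acetyl-CoA (0.41 ± 0.11, adjusted p = 0.036), and the elongase ELOVL5 (0.44 ± 0.12, adjusted p = 0.0456) were. Of the 7 degradation and handling genes 3 were lower as counted, and the ubiquitin ligases RNF139 (-0.43 ± 0.12, adjusted p = 0.0403) and RNF145 (-0.52 ± 0.12, adjusted p = 0.0219) after the correction. Of the 9 transport genes 4 were higher as counted, while edgeR called 0 after the correction. At an unadjusted edgeR p under 0.05, 5 of the 9 were then higher. Over the 12970 genes tested, 1950 were higher and 1722 lower at that threshold. For the 6 LXR genes edgeR called 0 on both scales, with 0 at an unadjusted p under 0.05, and DESeq2 and limma-voom called 0 as counted.

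With LPS_ABS against control, 8 of the 42 genes were higher and 8 lower as counted (19.0% each), against 14.8% and 19.0% of all genes, and 6 were higher (14.3%) and 2 lower (4.76%) after the correction, against 7.96% and 5.08% of all genes. The LXR genes ABCA1 (1.08 ± 0.16, edgeR adjusted p = 0.0014) and ABCG1 (2.29 ± 0.65, adjusted p = 0.036) were higher after the correction, against 3 of 6 as counted. MID1IP1 was higher on both scales (0.71 ± 0.13 corrected, adjusted p = 0.00494). Of the transport genes 2 were higher and 2 lower as counted, and after the correction NPC1 (0.50 ± 0.14, adjusted p = 0.0372) and NPC2 (0.47 ± 0.12, adjusted p = 0.0268) were higher and TMEM97 (-0.74 ± 0.15, adjusted p = 0.00801) lower. Of the isoprenoid branch genes 1 was higher and 5 lower as counted, and after the correction COQ2 (0.40 ± 0.12, adjusted p = 0.0486) was higher and PDSS1 (-0.62 ± 0.13, adjusted p = 0.00809) lower, both of ubiquinone synthesis. Of the degradation and handling genes 1 was higher and 1 lower as counted, and edgeR called 0 after the correction. At an unadjusted edgeR p under 0.05, 1 of these 7 was then higher and 1 lower. Over the 12970 genes tested, 2030 were higher and 1643 lower at that threshold.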

How the data were processed

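Members and gene lists were chosen with earlier results of these data known. Per the labels' protocols, RNA was extracted with TRIzol; the TruSeq stranded and VAHTS kits are both named for every sample. The tools in the submitters' processing notes are HISAT2, HTSeq, fastp, DESeq2 and R 3.2.0; genome build, annotation and strand setting are not given in the sources used here. The authors deposited raw counts and FPKM per gene; each deposited FPKM equalled the count over 1 length per gene and the library's total, to within 1.1e-13.

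Columns were matched to samples by title. In R 4.3.3, edgeR 4.0.16 fitted 3 group means to all 9 libraries (filterByExpr, TMM, 12970 genes with 99.985% of counts, 6 residual degrees of freedom, quasi-likelihood F test, Benjamini-Hochberg over genes tested, called at an adjusted p under 0.05). The common biological coefficient of variation was 18.4%. Levels (CPM) are scaled by TMM. For the GC correction, each library's log counts relative to the mean were smoothed against GC content by lowess, with a span of 0.3, and the trend was a model offset; GC content was that of the longest coding GENCODE v29 transcript (99.34% of genes, all 29 members). Fits were tested on simulated counts with a common spread and no GC trend, so the correction was not tested on such a trend. Alternatives were DESeq2 1.42.0, limma-voom (limma 3.58.1), other scalings, no filter, the replicate number as a block, only the compared groups, and leaving out each library. A corrected fit without LPS_ABS 3 was added after seeing the data, and its calls were counted over the members only. No libraries of a group agreed within counting noise (lowest chi-square per degree of freedom 7.13). With 3 libraries a group, an exact permutation test cannot go below p = 0.1, so none was used.

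Every member was named by rule. Members called with groups that did not overlap were mostly given per library, and some by fold change alone. Other members were given per library, by range or by fold change alone. Of each other list, up to 3 called genes with the smallest adjusted p were named.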

Additional observations from a re-analysis of the deposited data

How the results depend on the processing

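For LPS against control, 1 member was higher and 14 lower, and no called member changed direction in any alternative. With the GC correction 15 were lower, with DESeq2 15 and with only the 2 groups 2 higher and 16 lower. Leaving out 1 library gave 0 to 1 higher and 7 to 14 lower. Over all genes 1933 were called, 3245 with only the 2 groups and 873 to 1698 with 1 library left out. For LPS_ABS against LPS (9 higher, 6 lower), the GC correction gave 5 and 0, the correction with a replicate block 4 and 0, and the correction without LPS_ABS 3 gave 2 and 0; leaving out 1 library gave 2 to 8 lower. Over all genes 4621 were called, 1201 with the correction, 1412 with correction and block, 3042 with only the 2 groups and 2360 to 4918 with 1 library left out. For LPS_ABS against control (3 higher, 13 lower), the correction, with or without the block, gave 1 higher and 9 lower, and without LPS_ABS 3 it gave 1 and 7; leaving out 1 library gave 1 to 4 higher and 7 to 14 lower. Over all genes 4388 were called, 1692 with the correction, 1756 with correction and block and 2351 to 4679 with 1 library left out.

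The log2 fold changes of each alternative were compared in sign with those of the main fit. Sign changes of members called in neither fit numbered 7 for LPS against control, 21 for LPS_ABS against LPS and 29 for LPS_ABS against control. These came with and without the correction. The sign changes that involved a call in either fit all came with the correction. Against LPS, they were IDI1 0.013 (0.004 with the block, 0.094 without LPS_ABS 3), LBR 0.212 (0.195, 0.035), MSMO1 0.442 and, without LPS_ABS 3, GGPS1 0.026. Against control, they were GGPS1 0.009 (0.002, 0.107) and LBR 0.051 (0.041). The correction removes the trend of each library with GC content, and any change of expression that itself follows GC content is removed with it.

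Whether the replicate numbers pair the libraries cannot be decided here, since differently numbered libraries were not compared. Deviations of same-numbered libraries correlated at 0.013, -0.025 and -0.03 between LPS and control, at 0.118, 0.027 and -0.001 between LPS_ABS and LPS, and at 0.159, -0.011 and 0.184 between LPS_ABS and control. With the replicate block alone, 1 member was higher and 14 lower for LPS against control, 9 and 8 for LPS_ABS against LPS, and 3 and 12 for LPS_ABS against control, of 1960, 4838 and 4573 genes called. The block added calls of HMGCS1 (-0.59, edgeR adjusted p = 0.0282) and MBTPS2 (-0.51, adjusted p = 0.0362) for LPS_ABS against LPS and ended that of NSDHL for LPS_ABS against control (adjusted p = 0.068), and beside the GC correction it ended that of MSMO1 for LPS_ABS against LPS (0.44, adjusted p = 0.057). Counting error limits INSIG2 and NPC1L1, the members with the fewest reads.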
